A study of Mus musculus with 19 samples.

Results

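The genes described here encode the proteins that act closest to the T cell receptor (TCR): the CD3 chains and the CD4 coreceptor, the surface molecules beside them, the kinases and adaptors that carry the first signal, the effectors they recruit, and the phosphatases, ubiquitin ligases and brakes that tune or limit it. They were chosen by name, as a list of 43 genes. A gene was represented by the probe set with the highest mean over the 19 arrays among those annotated with its symbol alone, and was kept if that probe set reached log2 4 on 2 arrays. By this rule 42 of the 43 were measured, among 9930 genes in all. Lck, the kinase that starts the cascade, had no probe set named for it in the annotation used and was not analysed here.

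When a TCR binds its peptide, LCK phosphorylates the cytoplasmic tails of the CD3 and zeta (Cd247) chains. ZAP-70 docks there and phosphorylates the scaffolds LAT and SLP-76 (Lcp2), on which phospholipase C-gamma, VAV and the adaptors GADS (Grap2) and GRB2 assemble. From that complex run calcium release with calcineurin and NFAT, diacylglycerol with RASGRP1, RAS and protein kinase C-theta, and the BCL10 and MALT1 complex that leads to NF-kappaB. Follicular helper T (Tfh) cells, marked by CXCR5, PD-1 and the repressor BCL6, meet antigen repeatedly on B cells in the lymph node follicle.

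The arrays fell into 6 groups of mouse C57BL/6J CD4 T cells. In the labels, OT-II cells (T cells with a transgenic TCR for ovalbumin) carrying a YFP reporter at 1 Bcl6 allele (Bcl6yfp/+) were given to congenic recipient mice, which received the hapten-protein conjugate NP-OVA in complete Freund's adjuvant (CFA) subcutaneously, and draining lymph nodes were taken 7 or 10 days later. The populations compared first were CXCR5hi PD-1hi YFP-BCL6+ cells (YFP-positive, n = 4, with replicates 1, 2 and 3 at day 7 and replicate 4 at day 10), CXCR5hi PD-1hi YFP-BCL6- cells (YFP-negative, n = 4, with replicates 2 and 3 at day 7 and replicates 1 and 4 at day 10) and CXCR5lo PD-1lo cells (n = 3, day 7). CXCR5hi PD-1hi cells with no YFP gate in their label were of Bcl6yfp/+ (n = 3, day 7) and Bcl6+/+ (n = 3, replicates 1 and 2 at day 10 and replicate 3 at day 7) genotype, and naive CD4+ CD44lo CD62Lhi cells came from the spleens of unimmunized mice (n = 2). The same protocol text stands under all samples, so it may not describe the naive and Bcl6+/+ cells exactly. Ages are not given, and separate animals are not named for the arrays of a group. The p-values below therefore measure only how far these samples scatter, which can be technical scatter. CXCR5, PD-1, YFP, CD4, CD44 and CD62L were sorting markers.

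Values are log2 intensities after GCRMA, a background correction and normalization for this array type. The arrays fell into 7 sets that shared 1 distribution of values and so were probably normalized together. Sets 1, 2 and 3 each held 1 replicate number of the CXCR5lo PD-1lo group and of both YFP groups, set 4 held both replicates 4 of the YFP groups and naive replicate 1, and set 5 held Bcl6yfp/+ replicate 1 and naive replicate 2. Bcl6yfp/+ and Bcl6+/+ replicates 2 and 3 shared set 6, and Bcl6+/+ replicate 1 stood alone. The labels name TRIzol for the RNA of the YFP-sorted, CXCR5lo PD-1lo and first naive samples, and TRIzol or an RNeasy kit for the genotype groups and the second naive sample. The groups carried the markers of their labels: Cxcr5 averaged 13.88 and 13.70 in the YFP-positive and YFP-negative groups, 10.08 in CXCR5lo PD-1lo cells and 2.33 in naive cells, and Cd3e and Cd4 were between 13.29 and 14.55 on every array. Of 10 B-cell markers 2 were measured, of 10 myeloid markers 4, and of 6 erythroid and platelet markers 0. CXCR5lo PD-1lo cells were above both YFP groups in Nkg7, a transcript of cytotoxic cells (means 10.94, against 1.98 and 2.08). YFP-negative replicate 1 stood apart from the other arrays of its group in markers of antibody-secreting, myeloid and antigen-presenting cells: Jchain was at 12.42 there and at 2.2 to 3.06 on the others, Lyz2 at 10.98 against 2.3 to 2.44, Cd74 at 10.32 against 7.05 to 7.26. Sdc1, Xbp1, Tyrobp and Cst3 were also highest of the group on that array, whereas Prdm1 (2.33), Cd79b (2.41) and Cd68 (4.48) were not raised there. Jchain was also high on the other arrays of set 1, at 8.45 in YFP-positive and 10.53 in CXCR5lo PD-1lo replicate 1. Outside set 1 it was at 7.91 and 7.72 in CXCR5lo PD-1lo replicates 2 and 3 and at 7.54 in Bcl6yfp/+ replicate 1. Without YFP-negative replicate 1, 4 members were called in YFP-negative against CXCR5lo PD-1lo cells (3 with it) and 12 against naive cells (13 with it). The 4 measured of 7 CD8 and NK markers, as the log2 of their summed level, were at 11.62 to 12.38 in CXCR5lo PD-1lo cells, 6.47 to 7.50 over both YFP groups and 9.93 to 11.55 in naive cells, with Cd8a and Ncr1 not measured; the 4 measured of 5 plasma-cell markers overlapped between all 3 sorted groups. The 7 measured of 8 cell-cycle genes, summed likewise, were at 13.51 to 15.84 in YFP-positive cells, 11.25 to 14.19 in YFP-negative, 11.65 to 14.83 in CXCR5lo PD-1lo and 7.96 to 8.32 in naive cells. Their part in the results below was not tested.

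In YFP-positive Tfh cells compared with CXCR5lo PD-1lo cells, 6 TCR-signalling genes fell and 1 rose. The kinase Txk, the adaptor GADS (Grap2), the transmembrane brake Sit1, the surface molecule Cd6, the diacylglycerol kinase Dgka and the RAS activator Rasgrp1 were lower, by 1.70-fold to 6.27-fold, and the calcineurin inhibitor Rcan1 was higher by 3.30-fold. YFP-negative Tfh cells had 3 of the same falls, in Grap2, Sit1 and Cd6, and no rise. Each call is an adjusted p under 0.05 in limma, with Benjamini-Hochberg adjustment over the 9930 genes; of all of them 5.18% were higher and 5.39% lower in YFP-positive cells, and 3.13% and 3.39% in YFP-negative cells. The median difference of the 42 members was -0.19 log2 units in the YFP-positive and -0.04 in the YFP-negative comparison, beside -0.07 and -0.09 for all genes. Both comparisons share the CXCR5lo PD-1lo arrays, and in sorted pools fewer cells of a type and less RNA per cell cannot be told apart.

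Because arrays of the same replicate number deviated together (correlations between 0.27 and 0.87 for the pairs compared), the fit was also made with replicate number as a block. YFP-positive against CXCR5lo PD-1lo cells then gave 16 called members, 3 higher (18.4% of all genes were) and 13 lower (18.7%). Beyond those already named, Cd5, Lat, Pag1, Ptpn6, Sos1, Tec and Trat1 were lower and Malt1 and Zap70 higher. For YFP-negative cells it gave 13, 3 higher (11.7% of all genes) and 10 lower (12.3%): Cd5, Pag1, Ptpn6, Rasgrp1, Sos1, Txk and Vav3 joined the falls, and Malt1, Ptpn22 and Rcan1 were higher.

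**Figure D1:**
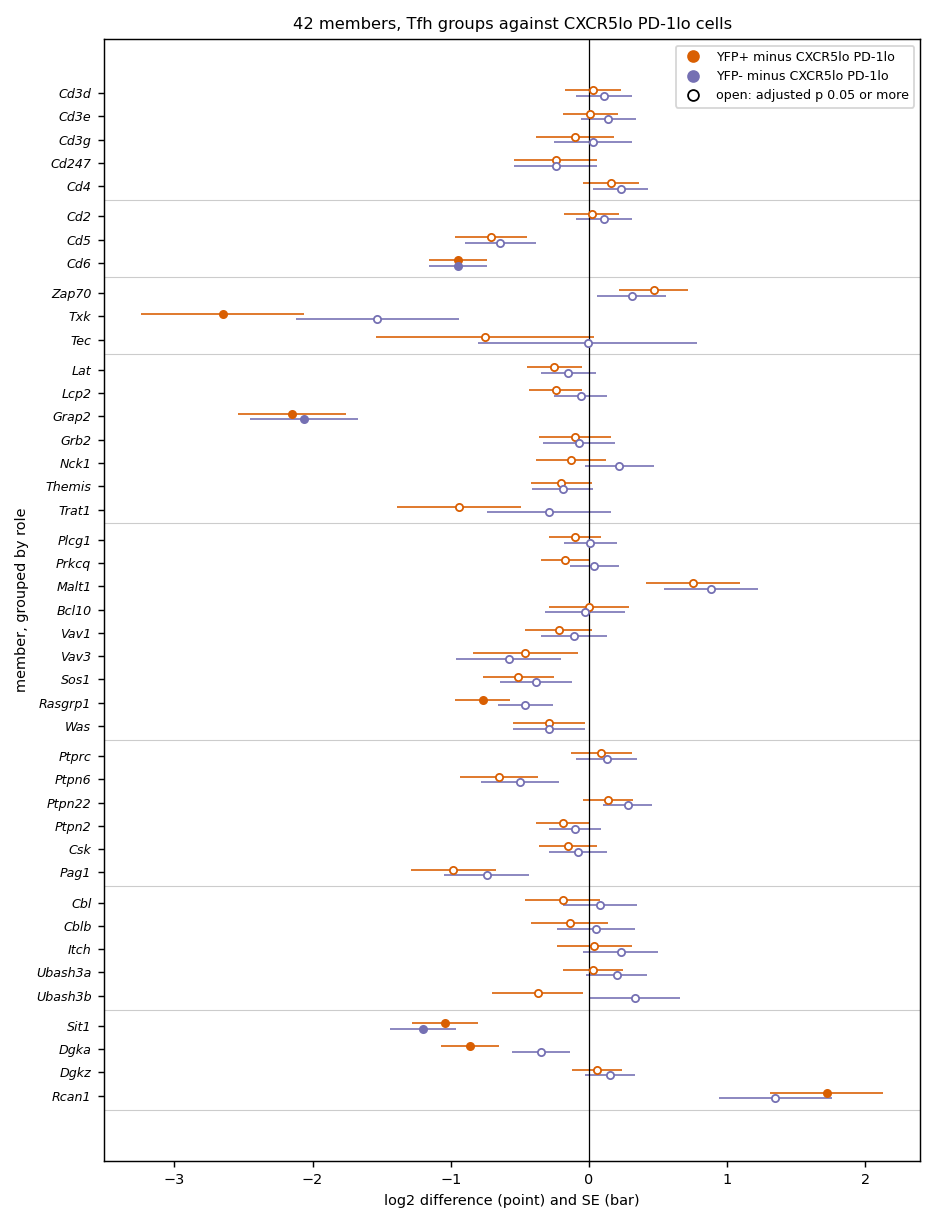
Log2 difference (x axis, point) with its standard error (bar) of the 42 members, grouped by role on the y axis, in YFP-positive and YFP-negative Tfh cells minus CXCR5lo PD-1lo cells; filled points passed at adjusted p under 0.05 and open points did not. Txk and Grap2 lie farthest to the left, at -2.65 and -2.15 in YFP-positive cells, and Rcan1 farthest to the right at 1.72.

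Against naive cells, the antigen-experienced groups shared a pattern: ZAP-70, SLP-76, BCL10, PTPN22, CSK and the STS phosphatases (Ubash3a and Ubash3b) were higher, and the kinase Tec was lower by 10-fold or more. CXCR5lo PD-1lo cells had 8 members higher and 1 lower (10.4% and 1.58% of all genes). YFP-positive cells had 10 higher and 4 lower (22.4% and 6.46%), YFP-negative cells 10 and 3 (16.5% and 4.64%), and the mean of the Bcl6yfp/+ and Bcl6+/+ groups 12 and 3 (28.4% and 5.92%). Out of 42 members, the counts of higher ones in YFP-positive cells and the genotype groups were thus near the share of all genes. Those in CXCR5lo PD-1lo and YFP-negative cells were above it, which was not tested. All 4 comparisons share the 2 naive arrays. In the labels the naive cells came from spleens of unimmunized mice and the other cells from draining lymph nodes. Antigen and tissue therefore cannot be told apart in these comparisons. The median of all genes was itself shifted upward against naive cells, by 0.46, 0.39, 0.38 and 0.50 log2 units in that order. The members' medians were 0.37, 0.35, 0.44 and 0.53. For Cd6, Zap70, Plcg1, Ptpn22, Ptprc, Cblb and Dgkz, differences are also given below relative to the all-gene median. Other differences from naive cells below include this shift. Relative to that median, Lcp2 gave 0.69 and 0.52 in CXCR5lo PD-1lo and YFP-positive cells, and Csk 0.51 and 0.43. Cd4 gave 0.14, 0.23 and 0.04 in YFP-positive, YFP-negative and genotype groups. When all arrays were brought to 1 distribution by quantile normalization, the split became 6 higher and 3 lower for CXCR5lo PD-1lo cells (6.57% and 7.36% of all genes), 7 and 14 for YFP-positive cells (17.3% and 21.5%), 8 and 9 for YFP-negative cells (12.7% and 15.5%) and 8 and 11 for the genotype groups (17.4% and 15.0%). Every gene named in the first sentence of this paragraph kept its direction in both scalings, though not always its call.

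These calls lean on both naive arrays. Without naive replicate 2, the members called were 2 in CXCR5lo PD-1lo cells, 8 in YFP-positive, 6 in YFP-negative and 9 in the genotype groups; without naive replicate 1 they were 3, 10, 8 and 11. CXCR5lo PD-1lo cells had 2 called members also without their own replicate 1 or replicate 2, and the genotype groups had 27 without Bcl6yfp/+ replicate 1. The calls that survived the removal of every single array were Lcp2 and Ubash3a in CXCR5lo PD-1lo cells, Cd6, Zap70, Txk, Tec, Ptpn22 and Ubash3a in YFP-positive cells, Cd6, Lcp2, Ptpn22 and Ubash3a in YFP-negative cells, and Cd6, Zap70, Tec, Lcp2, Ptpn22, Csk, Ubash3a and Dgkz in the genotype groups. No normalization set holds both CXCR5lo PD-1lo and naive arrays, so set and group cannot be told apart within that pair without passing through other groups.

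**Figure D2:**
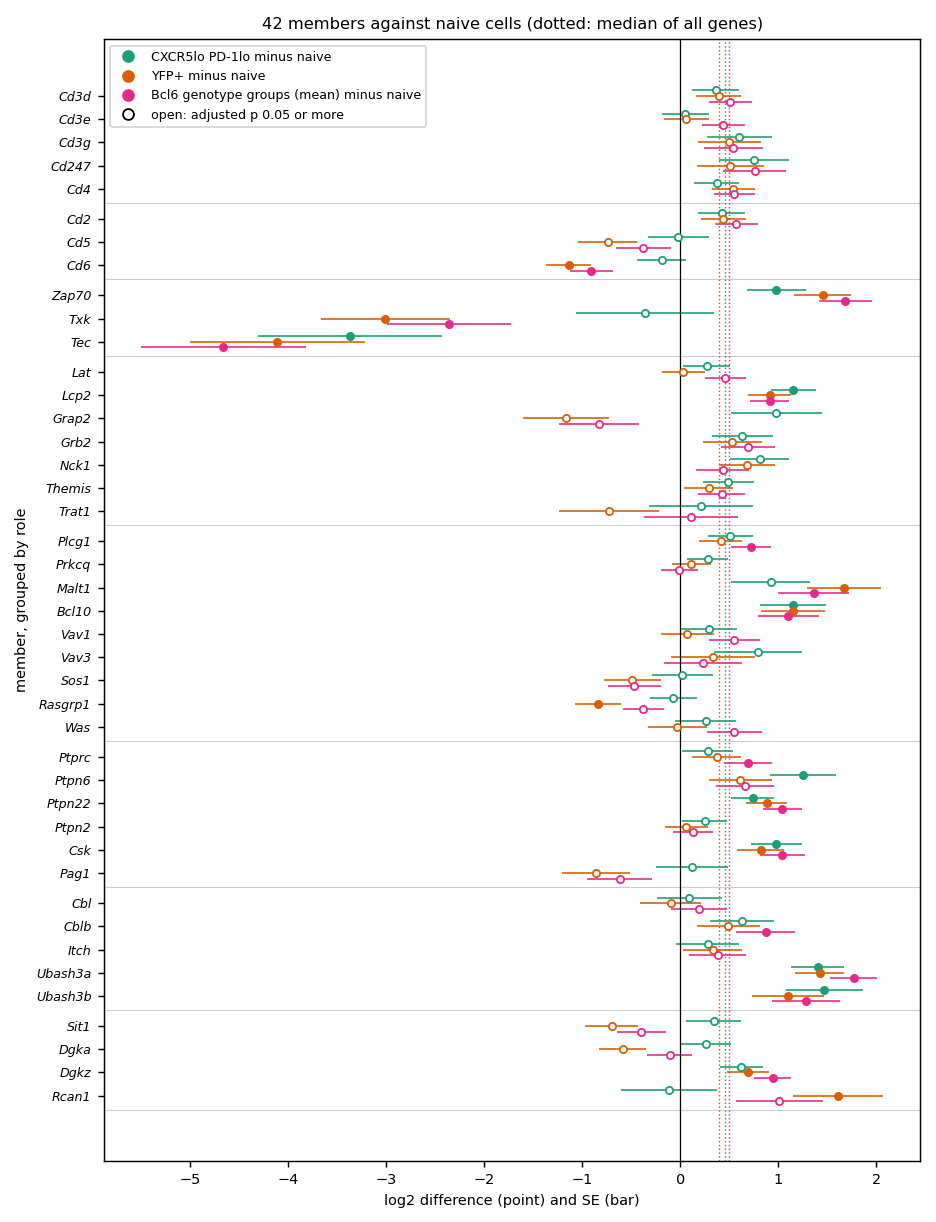
Log2 difference (x axis, point) with its standard error (bar) of the 42 members, grouped by role on the y axis, in CXCR5lo PD-1lo cells, YFP-positive Tfh cells and the mean of both Bcl6 genotype groups, each minus naive cells; dotted lines mark the median of all 9930 genes, filled points passed at adjusted p under 0.05. Tec lies at -3.37, -4.11 and -4.66, and most receptor chains lie near the dotted lines.

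None of the 5 TCR and coreceptor chains passed in any comparison of group means. Against naive cells an unadjusted limma p under 0.05 was found for Cd4 in YFP-positive, YFP-negative and genotype groups (0.54, 0.61 and 0.55; adjusted p = 0.081, 0.065 and 0.054) and for Cd3d and Cd247 in the genotype groups (0.51 and 0.76; adjusted p = 0.082 and 0.073). When the 7 normalization sets were fitted as a block (the set block), Cd3g and Cd4 passed in YFP-negative against naive cells (0.31 and 0.40; adjusted p = 0.031 and 0.035), and with day as a covariate Cd247 passed in the genotype groups (0.91, adjusted p = 0.031). Across the 6 groups the means of Cd3d spanned 14.49 to 15.08, those of Cd3e 13.96 to 14.43 and those of Cd3g 13.97 to 14.59, with naive cells lowest for each. Cd247, the zeta chain that carries most of the signalling motifs, ranged from 12.78 in naive to 13.57 in Bcl6yfp/+ cells, and Cd4, which was also a sorting marker, from 13.58 to 14.22. Cd3d, Cd3e and Cd3g lie side by side on chromosome 9, with no coding gene between Cd3d and either neighbour. In YFP-positive against CXCR5lo PD-1lo cells the differences of Cd3d and Cd3g were 0.03 and -0.10.

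Of the accessory surface molecules, Cd6 changed and its neighbour Cd5 did not pass. Both are scavenger-receptor proteins that set the strength of TCR signalling, and their genes are adjacent on chromosome 19. Cd6 was at 12.70 and 12.69 on the naive arrays and at 12.36, 12.50 and 12.65 on the CXCR5lo PD-1lo arrays. It was at 11.75, 11.61, 11.43 and 11.43 in YFP-positive cells and at 11.76, 11.76, 11.55 and 11.14 in YFP-negative cells. Bcl6yfp/+ arrays had 11.47, 11.63 and 11.65, and Bcl6+/+ arrays 12.26, 12.13 and 11.54. Thus every Tfh array lay below every CXCR5lo PD-1lo and naive array. The difference from CXCR5lo PD-1lo cells was -0.95 (SE 0.21, limma adjusted p = 0.006) for YFP-positive and -0.95 (SE 0.21, adjusted p = 0.0081) for YFP-negative cells, and the second lost its call without CXCR5lo PD-1lo replicate 3 (adjusted p = 0.051). Against naive cells it was -1.14 in both YFP groups, which is -1.53 and -1.52 relative to the all-gene median, and -0.91 (-1.42) in the genotype groups. Cd5 gave -0.71 (limma adjusted p = 0.099) and -0.64 (adjusted p = 0.21) against CXCR5lo PD-1lo cells, and -0.59 (adjusted p = 0.0049) and -0.51 (adjusted p = 0.012) with the replicate block. Cd2, the receptor for CD48, had group means between 13.79 and 14.45 and was called in no comparison of group means; with the set block it passed in YFP-negative against naive cells (0.33, adjusted p = 0.02).

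The largest differences were in the Tec-family kinases, which are recruited to the membrane and phosphorylate phospholipase C-gamma. Txk and Tec are neighbours on chromosome 5 with no coding gene between them. Both were called lower than in naive cells in YFP-positive cells and the genotype groups. In the fit of group means they parted in 2 comparisons. Only Tec was called lower in CXCR5lo PD-1lo than in naive cells. Only Txk was called lower in YFP-positive than in CXCR5lo PD-1lo cells. Tec separated naive cells from all others: it was at 10.82 and 10.11 on the naive arrays, and at 5.85, 7.05 and 8.38 in CXCR5lo PD-1lo cells. YFP-positive arrays had 5.27, 6.34, 6.92 and 6.85 and YFP-negative arrays 5.59, 7.32, 8.0 and 7.41. Bcl6yfp/+ arrays had 7.33, 4.77 and 5.49 and Bcl6+/+ arrays 7.52, 4.84 and 4.86. No other array reached the naive values, and within the groups Tec spread widely. The fall from naive was -3.37 (SE 0.94, 10.3-fold, limma adjusted p = 0.029) in CXCR5lo PD-1lo cells, -4.11 (SE 0.89, 17.3-fold, adjusted p = 0.0025) in YFP-positive cells, -3.38 (10.4-fold) in YFP-negative cells and -4.66 (25.2-fold) in the genotype groups. Between YFP-positive and CXCR5lo PD-1lo cells Tec gave -0.75 and did not pass; with the replicate block it gave -0.89 (adjusted p = 0.013).

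Txk was lower on every Tfh array than on the CXCR5lo PD-1lo and naive arrays. It was at 10.27 and 9.69 on the naive arrays and at 9.46, 9.89 and 9.51 on the CXCR5lo PD-1lo arrays, a difference of -0.36 that did not pass; with the set block, which joins these groups only through other arrays, it was -2.74 (SE 0.38, limma adjusted p = 0.0013). YFP-negative arrays had 8.48, 8.38, 8.54 and 6.95 and YFP-positive arrays 7.67, 7.71, 7.54 and 4.96. Bcl6yfp/+ arrays had 7.27, 7.97 and 7.96 and Bcl6+/+ arrays 6.58, 7.97 and 7.93. Every Tfh array lay below every CXCR5lo PD-1lo array, and replicate 4 was lowest in both YFP groups; it is a day 10 array in each, but YFP-negative replicate 1, also from day 10, was at 8.48, level with the day 7 arrays. YFP-positive cells were lower than CXCR5lo PD-1lo cells by 6.27-fold (-2.65, SE 0.59, limma adjusted p = 0.0066), a call that was lost when only these 2 groups were fitted (adjusted p = 0.056). The YFP-negative difference was -1.53 (adjusted p = 0.17), and -1.01 (adjusted p = 0.027) with the replicate block. Against naive cells Txk fell by 3.01 in YFP-positive cells (8.04-fold) and by 2.36 in the genotype groups (5.15-fold).

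ZAP-70, the kinase that binds the phosphorylated CD3 and zeta chains, moved the other way. Zap70 was at 11.35 and 11.80 on the naive arrays, between 12.36 and 12.76 in CXCR5lo PD-1lo cells, between 12.73 and 13.02 in YFP-negative cells and between 12.92 and 13.09 in YFP-positive cells. Its rise over naive cells was 0.98, 1.45, 1.29 and 1.68 in CXCR5lo PD-1lo, YFP-positive, YFP-negative and genotype groups, or 0.52, 1.05, 0.91 and 1.18 relative to the all-gene median. Both other Zap70 probe sets rose in the first of these comparisons too, by 1.28 and 0.85. The call in that comparison was weak (limma adjusted p = 0.046) and was lost in every fit that left out 1 array (adjusted p up to 0.23). It was also lost with day as a covariate, with only the groups compared, without the low-value filter and after quantile normalization. The YFP-negative call was lost without naive replicate 1 (adjusted p = 0.069), and the genotype call with the set block.

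**Figure D3:**
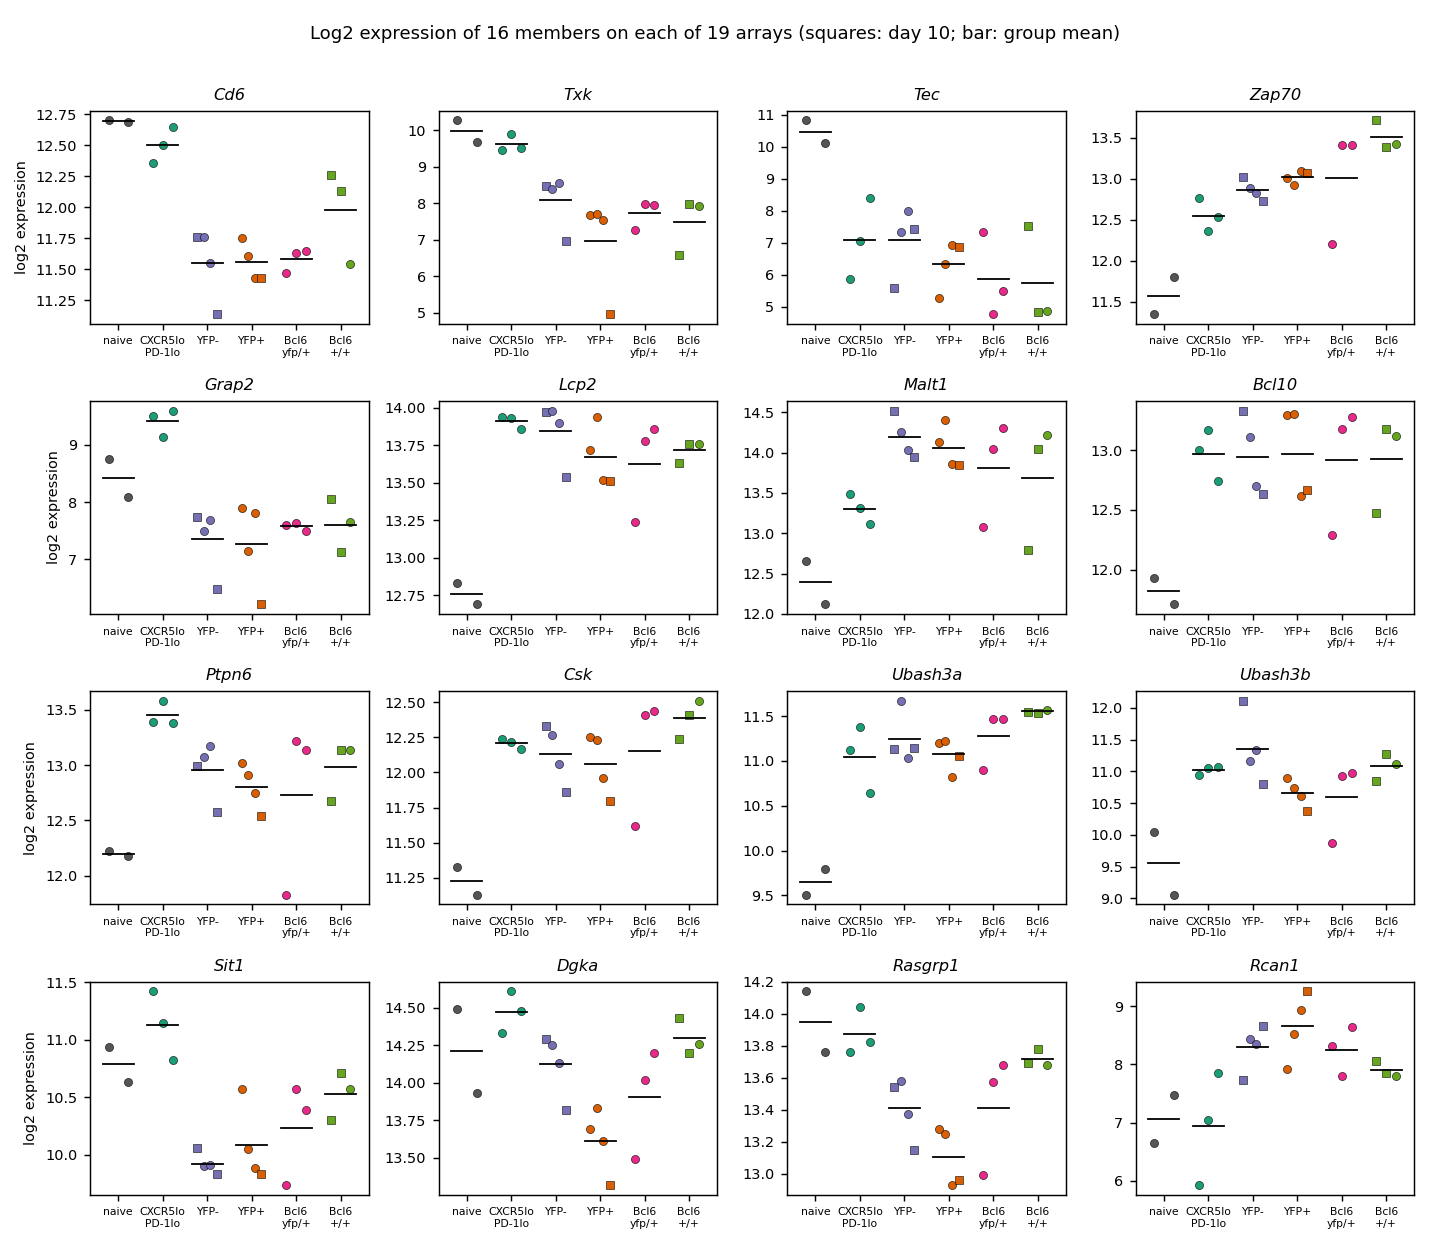
Log2 expression (y axis, a separate scale in each panel that does not start at 0) of 16 members on each of the 19 arrays by group (x axis); circles are day 7 or naive arrays, squares day 10 arrays, and bars group means. Cd6, Txk and Grap2 are lower on every CXCR5hi PD-1hi array than on the CXCR5lo PD-1lo arrays, Tec is highest on the naive arrays at 10.82 and 10.11, and Rcan1 has its highest mean in YFP-positive cells.

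Among the 7 adaptors, Grap2 fell in Tfh cells, and Lcp2 was higher in the immunized groups than in naive cells. GADS, the product of Grap2, bridges LAT to SLP-76, the product of Lcp2. Grap2 was at 9.50, 9.13 and 9.6 in CXCR5lo PD-1lo cells and at 8.76 and 8.09 in naive cells. YFP-positive arrays had 7.89, 7.14, 7.80 and 6.21, and YFP-negative arrays 7.74, 7.50, 7.69 and 6.48. Bcl6yfp/+ arrays had 7.60, 7.64 and 7.50 and Bcl6+/+ arrays 8.05, 7.12 and 7.65. Every Tfh array was thus below every CXCR5lo PD-1lo and every naive array. The difference from CXCR5lo PD-1lo cells was -2.15 (SE 0.39, 4.43-fold, limma adjusted p = 0.0013) for YFP-positive and -2.06 (SE 0.39, 4.16-fold, adjusted p = 0.0026) for YFP-negative cells, and both calls held in each fit that left out 1 array. Against naive cells Grap2 gave -1.17, -1.08 and -0.83 in YFP-positive, YFP-negative and genotype groups, none past the threshold; after quantile normalization these were -1.98, -1.79 and -1.11, and all passed (adjusted p = 0.0015, 0.0042 and 0.039). A second Grap2 probe set stayed near 2.1 in all groups compared and did not pass the low-value filter.

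Lcp2 was at 12.83 and 12.69 on the naive arrays. It was at 13.94, 13.93 and 13.86 in CXCR5lo PD-1lo cells, at 13.72, 13.94, 13.52 and 13.51 in YFP-positive cells and at 13.97, 13.98, 13.90 and 13.54 in YFP-negative cells. Bcl6yfp/+ arrays had 13.24, 13.78 and 13.86 and Bcl6+/+ arrays 13.63, 13.76 and 13.76. The naive arrays were below all others. The rise was 1.15 (SE 0.23, limma adjusted p = 0.0032) in CXCR5lo PD-1lo cells and 0.91 (SE 0.22, adjusted p = 0.0048) in YFP-positive cells, and its other probe set rose by 1.67 and 1.80. The remaining adaptors changed less. Nck1, which links the receptor to the actin skeleton, rose over naive cells in YFP-negative cells by 1.02. Lat, Grb2 and Themis, a regulator of TCR signalling in thymocytes, spanned 0.58, 0.71 and 0.59 log2 units between their lowest and highest group means and were called in no comparison of group means. Lat passed in YFP-positive against CXCR5lo PD-1lo cells with the replicate block (-0.23, adjusted p = 0.035) and the set block (-0.23, adjusted p = 0.01). Grb2 passed with the set block against naive cells in CXCR5lo PD-1lo, YFP-positive and YFP-negative cells (0.39, 0.31 and 0.34; adjusted p = 0.049, 0.042 and 0.034). Trat1, which stabilises the receptor at the surface, was at 11.26 in YFP-positive and 12.20 in CXCR5lo PD-1lo cells (-0.94, limma adjusted p = 0.24; with the replicate block -0.66, adjusted p = 0.03).

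Of the 9 effectors, the NF-kappaB partners Malt1 and Bcl10 rose over naive cells. Bcl10 recruits MALT1, which is both scaffold and protease. Malt1 was at 12.66 and 12.12 on the naive arrays and at 13.49, 13.31 and 13.11 in CXCR5lo PD-1lo cells. YFP-positive arrays had 14.13, 14.40, 13.86 and 13.85, YFP-negative arrays 14.52, 14.26, 14.03 and 13.95, Bcl6yfp/+ arrays 13.08, 14.04 and 14.31 and Bcl6+/+ arrays 12.79, 14.05 and 14.22. Thus the YFP-sorted Tfh arrays were above all CXCR5lo PD-1lo arrays, whereas Bcl6yfp/+ replicate 1 and Bcl6+/+ replicate 1 were not. Against naive cells Malt1 rose by 1.67 (SE 0.38, 3.18-fold, limma adjusted p = 0.0039) in YFP-positive and by 1.80 (3.48-fold) in YFP-negative cells. Against CXCR5lo PD-1lo cells it gave 0.75 (adjusted p = 0.20) and 0.88 (adjusted p = 0.17), and 0.83 (adjusted p = 0.0019) and 0.96 (adjusted p = 0.0015) with the replicate block. Bcl10 did not separate the immunized groups, with means from 12.92 to 12.97. It was at 11.93 and 11.71 on naive arrays, at 13.00, 13.17 and 12.74 in CXCR5lo PD-1lo cells, at 13.29, 13.30, 12.62 and 12.67 in YFP-positive cells and at 13.33, 13.11, 12.70 and 12.63 in YFP-negative cells. Bcl6yfp/+ arrays had 12.29, 13.18 and 13.28 and Bcl6+/+ arrays 12.47, 13.18 and 13.12. It rose over naive cells by 1.15, 1.15, 1.12 and 1.10 in the 4 comparisons.

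Rasgrp1, the diacylglycerol-activated exchange factor for RAS, fell in YFP-positive cells. It was at 13.28, 13.25, 12.93 and 12.96 there, at 13.54, 13.58, 13.37 and 13.15 in YFP-negative cells, at 13.76, 14.04 and 13.82 in CXCR5lo PD-1lo cells and at 14.14 and 13.76 in naive cells. Bcl6yfp/+ arrays had 12.99, 13.57 and 13.68 and Bcl6+/+ arrays 13.69, 13.78 and 13.68, of which the Bcl6+/+ arrays were close to the CXCR5lo PD-1lo range; the genotype groups gave -0.38 against naive cells (limma adjusted p = 0.17). YFP-positive arrays lay below all CXCR5lo PD-1lo arrays, by -0.77 on average (SE 0.20, limma adjusted p = 0.02), and 2 of its other probe sets gave -1.38 and -1.55; the remaining one was near the floor in YFP-positive cells. The call was lost without YFP-positive replicate 3, CXCR5lo PD-1lo replicate 2 or CXCR5lo PD-1lo replicate 3 (adjusted p up to 0.11). Against naive cells it fell by 0.84 in YFP-positive cells. The RefSeq promoter window of Rasgrp1 (GRCm38.p6, chr2:117342828-117343127, minus strand, 250 bases before to 50 after the start) is shown because it was 1 of 4 member windows that held the core TTCNNNGAA, which STAT factors and BCL6 can bind; capitals mark the match.
Rasgrp1: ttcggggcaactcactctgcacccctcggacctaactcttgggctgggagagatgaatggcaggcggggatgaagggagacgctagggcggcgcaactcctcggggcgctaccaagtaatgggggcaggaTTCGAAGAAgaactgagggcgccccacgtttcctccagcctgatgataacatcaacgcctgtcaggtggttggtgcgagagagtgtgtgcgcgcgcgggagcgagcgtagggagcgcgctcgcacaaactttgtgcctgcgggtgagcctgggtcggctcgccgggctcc
Over the 36 members with a window, 4 of 54 windows (7.41%) held this core on either strand, beside 8.30% of all 32851 windows of this length; the others were of Cd3d, Ptpn22 and Ubash3b. A match is a description of the letters only.

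The other effectors were flat or changed in 1 comparison. Plcg1, phospholipase C-gamma itself, rose over naive cells in the genotype groups (0.72, or 0.22 relative to the all-gene median). That call was lost with the set block, with only the groups compared, after quantile normalization and without either naive array. Another Plcg1 probe set gave -1.68, but it was near the floor in the genotype groups (2.44, against 4.12 in naive cells). Prkcq, protein kinase C-theta, Vav1 and Vav3, guanine nucleotide exchange factors, and Was, which drives actin branching, were called in no comparison of group means. Vav1 gave -0.40 (adjusted p = 0.035) in YFP-positive against naive cells after quantile normalization. Vav3 gave -0.63 (adjusted p = 0.048) with the replicate block in YFP-negative against CXCR5lo PD-1lo cells, and with the set block it was lower there, in YFP-positive against CXCR5lo PD-1lo cells (-0.51, adjusted p = 0.033) and in the genotype groups against naive cells (-0.98, adjusted p = 0.048). Sos1, the other RAS exchange factor, gave -0.51 (limma adjusted p = 0.26) in YFP-positive against CXCR5lo PD-1lo cells, and -0.45 (adjusted p = 0.0032) with the replicate block.

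The phosphatases and the CSK axis set the activity of LCK and ZAP-70. CSK phosphorylates the inhibitory tyrosine of LCK, PAG1 holds CSK at the membrane, and CD45 (Ptprc) removes the inhibitory phosphate. SHP-1 (Ptpn6) and PTPN22 dephosphorylate the active kinases. Ptpn6 was at 12.22 and 12.18 on the naive arrays and at 13.39, 13.58 and 13.38 in CXCR5lo PD-1lo cells, above every other array. YFP-positive arrays had 13.02, 12.91, 12.75 and 12.54, YFP-negative arrays 12.99, 13.07, 13.17 and 12.58, Bcl6yfp/+ arrays 11.83, 13.22 and 13.14 and Bcl6+/+ arrays 12.68, 13.14 and 13.14. Every YFP-sorted Tfh array was between the naive and the CXCR5lo PD-1lo arrays. It rose by 1.25 from naive to CXCR5lo PD-1lo cells (SE 0.34, 2.38-fold, limma adjusted p = 0.024) and gave -0.65 (adjusted p = 0.19) from there to YFP-positive cells, or -0.54 (adjusted p = 0.0077) with the replicate block. Csk was at 11.33 and 11.13 on the naive arrays, at 12.24, 12.22 and 12.17 in CXCR5lo PD-1lo cells, at 12.25, 12.23, 11.96 and 11.80 in YFP-positive cells and at 12.33, 12.27, 12.06 and 11.86 in YFP-negative cells. Bcl6yfp/+ arrays had 11.62, 12.41 and 12.44 and Bcl6+/+ arrays 12.24, 12.41 and 12.51. The naive arrays were lowest, and Csk rose by 0.98 (SE 0.26, limma adjusted p = 0.021) in CXCR5lo PD-1lo and by 0.82 (SE 0.24, adjusted p = 0.018) in YFP-positive cells.

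Ptpn22 had group means of 13.08 in naive cells and 13.82 to 14.17 elsewhere, and rose by 0.74, 0.88, 1.02 and 1.04 in the 4 comparisons, or by 0.28, 0.49, 0.64 and 0.53 relative to the all-gene median. Pag1 fell short of the threshold in YFP-positive against CXCR5lo PD-1lo cells (-0.98, limma adjusted p = 0.051) and passed with the replicate block (-0.79, adjusted p = 0.0024). Ptpn2, a phosphatase of LCK and of JAK kinases, had the narrowest span of the members, with group means from 12.62 to 12.86. Ptprc rose over naive cells in the genotype groups (0.69, or 0.19 relative to the all-gene median), and its other probe set went the other way (-0.63). The Ptprc call was lost with the set block, with only the groups compared and after quantile normalization. It held in 2 of 8 fits that left out 1 array. Within set 5 the difference was 0.04.

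Among the ubiquitin ligases and STS proteins, the STS pair rose over naive cells in all 4 comparisons. UBASH3A and UBASH3B (STS-2 and STS-1) bind CBL, and UBASH3B dephosphorylates ZAP-70. Ubash3a was at 9.51 and 9.79 on the naive arrays and at 11.12, 11.38 and 10.64 in CXCR5lo PD-1lo cells. YFP-positive arrays had 11.20, 11.22, 10.82 and 11.06, YFP-negative arrays 11.13, 11.67, 11.03 and 11.15, Bcl6yfp/+ arrays 10.90, 11.47 and 11.47 and Bcl6+/+ arrays 11.55, 11.54 and 11.57. No immunized array overlapped the naive ones. The rise was 1.40 (SE 0.27, limma adjusted p = 0.0023), 1.42 (SE 0.25, adjusted p = 0.00051), 1.6 and 1.77 in the 4 comparisons; a second probe set rose by 0.31 in the first and gave -0.28 in the last. Ubash3b was at 10.05 and 9.06 on the naive arrays, at 10.94, 11.05 and 11.07 in CXCR5lo PD-1lo cells, at 10.89, 10.74, 10.61 and 10.38 in YFP-positive cells and at 12.11, 11.17, 11.33 and 10.80 in YFP-negative cells. Bcl6yfp/+ arrays had 9.87, 10.93 and 10.98 and Bcl6+/+ arrays 10.85, 11.28 and 11.11, so Bcl6yfp/+ replicate 1 overlapped the naive range. It rose by 1.47, 1.10, 1.80 and 1.28 in the 4 comparisons, with calls that rest on single arrays. In CXCR5lo PD-1lo cells its difference was 0.42 (adjusted p = 0.38) with the set block, and the call was lost without CXCR5lo PD-1lo replicate 1 or 2 or naive replicate 2 (0.97 to 1.96, adjusted p up to 0.31). In YFP-positive cells the call was lost without YFP-positive replicate 1, 2 or 3 or naive replicate 2 (0.61 to 1.59, adjusted p up to 0.43), with the set block and after quantile normalization. Without naive replicate 2 it was also lost in YFP-negative cells (adjusted p = 0.081) and in the genotype groups (adjusted p = 0.24). The E3 ligases that mark receptor components for degradation moved less: Cblb rose by 0.87 in the genotype groups, or 0.37 relative to the all-gene median, and Cbl and Itch were not called in any comparison of group means. The Cblb call was lost with the set block, with only the groups compared and after quantile normalization. It held in 2 of 8 fits that left out 1 array. With the set block Cbl was lower against naive cells in CXCR5lo PD-1lo, YFP-positive and YFP-negative cells (-0.81, -0.80 and -0.52; adjusted p = 0.011, 0.0031 and 0.025), and Itch was higher in YFP-negative than in CXCR5lo PD-1lo cells (0.26, adjusted p = 0.019).

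The remaining brakes went in different directions. Rcan1 inhibits calcineurin, and its gene is itself a target of NFAT. It was at 7.93, 8.53, 8.94 and 9.26 in YFP-positive cells and at 7.73, 8.43, 8.36 and 8.66 in YFP-negative cells. CXCR5lo PD-1lo arrays had 5.93, 7.04 and 7.86, naive arrays 6.65 and 7.48, Bcl6yfp/+ arrays 8.31, 7.80 and 8.64 and Bcl6+/+ arrays 8.06, 7.85 and 7.80. Every YFP-positive array was above every CXCR5lo PD-1lo array, by 0.07 at the closest, while the CXCR5lo PD-1lo arrays spread over nearly 2 log2 units. The rise was 1.72 (SE 0.41, 3.30-fold, limma adjusted p = 0.01), lost without CXCR5lo PD-1lo replicate 1 (adjusted p = 0.061) and when only these 2 groups were fitted (adjusted p = 0.081). YFP-negative cells gave 1.35 (adjusted p = 0.062), or 1.19 (adjusted p = 0.011) with the replicate block. Over naive cells Rcan1 rose by 1.61 in YFP-positive cells. That call was lost after quantile normalization and without naive replicate 1 (limma adjusted p = 0.17). YFP-negative and genotype groups gave 1.23 and 1.01 over naive cells and did not pass (adjusted p = 0.07 and 0.082). A second Rcan1 probe set was near the floor, at 2.53 in YFP-positive and 2.25 in CXCR5lo PD-1lo cells, and did not pass the low-value filter.

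In the fit of group means Rcan1 was the only member called higher in YFP-positive than in CXCR5lo PD-1lo cells. It has a first and an internal promoter, so both RefSeq windows (GRCm38.p6, minus strand) are printed: window 1 at chr16:92466120-92466419 and window 2 at chr16:92400029-92400328. Capitals mark GGAAA, the core bound by NFAT, on either strand.
Rcan1 window 1: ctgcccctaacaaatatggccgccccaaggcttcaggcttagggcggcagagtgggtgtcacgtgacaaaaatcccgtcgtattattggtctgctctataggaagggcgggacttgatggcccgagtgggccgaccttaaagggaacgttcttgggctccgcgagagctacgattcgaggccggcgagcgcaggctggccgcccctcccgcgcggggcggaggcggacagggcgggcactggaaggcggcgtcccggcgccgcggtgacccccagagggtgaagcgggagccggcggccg
Rcan1 window 2: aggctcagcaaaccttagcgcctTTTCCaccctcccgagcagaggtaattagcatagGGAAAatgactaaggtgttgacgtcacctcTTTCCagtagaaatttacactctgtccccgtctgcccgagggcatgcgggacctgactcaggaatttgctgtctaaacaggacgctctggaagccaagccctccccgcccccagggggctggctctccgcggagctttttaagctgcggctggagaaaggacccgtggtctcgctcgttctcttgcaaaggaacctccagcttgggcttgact
Window 2 held 3 matches, at positions 24, 58 and 88 from its 5' end, and window 1 held 0. The core is common: 38 of 54 member windows (70.4%) and 61.3% of all 32851 windows held it.

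Sit1, a transmembrane adaptor that recruits phosphatases and CSK, was at 11.42, 11.14 and 10.82 in CXCR5lo PD-1lo cells and at 10.94 and 10.63 in naive cells. YFP-positive arrays had 10.57, 10.05, 9.89 and 9.83, YFP-negative arrays 10.06, 9.90, 9.91 and 9.83, Bcl6yfp/+ arrays 9.74, 10.57 and 10.39 and Bcl6+/+ arrays 10.30, 10.71 and 10.57. YFP-sorted Tfh arrays lay below all CXCR5lo PD-1lo arrays. The differences were -1.04 (SE 0.24, limma adjusted p = 0.0083) and -1.20 (SE 0.24, adjusted p = 0.0039) for YFP-positive and YFP-negative cells, and -0.86 for YFP-negative against naive cells. The diacylglycerol kinases, which remove the lipid that activates RASGRP1, parted company. Dgka was at 13.69, 13.83, 13.61 and 13.32 in YFP-positive and 14.33, 14.61 and 14.48 in CXCR5lo PD-1lo cells (-0.86, SE 0.21, limma adjusted p = 0.015, lost without CXCR5lo PD-1lo replicate 2 or 3 with adjusted p up to 0.082), and Dgkz gave 0.06 there. Against naive cells Dgkz rose by 0.69, 0.77 and 0.94 in YFP-positive, YFP-negative and genotype groups (0.29, 0.40 and 0.43 relative to the all-gene median), whereas Dgka gave -0.59, -0.09 and -0.11. All 3 Dgkz calls were lost after quantile normalization and with only the groups compared. The YFP-positive call was also lost without YFP-positive replicate 2 or either naive array (limma adjusted p up to 0.17). Without naive replicate 2 the YFP-negative call was lost (adjusted p = 0.14).

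YFP-positive and YFP-negative Tfh cells differed in no member past the threshold (0.121% of all genes passed, and 2 members, Dgka and Ubash3b, had an unadjusted limma p under 0.05). With the replicate block 1 member passed, beside 2.70% of all genes: Dgka was lower in YFP-positive cells by 0.60, 0.42, 0.52 and 0.50 in the 4 same-number pairs (-0.51, SE 0.07, adjusted p = 0.034). Small falls ran through the list: 21 of the 42 members were lower in the YFP-positive array of all 4 pairs, beside 20.7% of all genes, and 1 member (Rcan1) was higher in all 4, beside 24.3%. The 21 were spread over the roles, from Cd3d, Cd3g and Cd2 through Txk, Tec, Lat, Lcp2, Nck1 and Trat1, Plcg1, Prkcq, Sos1 and Rasgrp1, Ptpn22, Ptpn2, Csk and Pag1, to Cbl, Itch, Ubash3b and Dgka. The largest of them were in Txk (-0.81, -0.67, -1.0 and -1.99), Tec (-0.32, -0.98, -1.08 and -0.56) and Ubash3b (-1.22, -0.43, -0.72 and -0.42), and many were below 0.2. The median of the members was -0.12, -0.12, -0.18 and -0.06 in pairs 1 to 4, and that of all genes between 0.00 and 0.02 in size. The count is a description, with no test; pair 1 also differs in day, and without it 25 members were lower in the remaining 3 pairs (26.1% of all genes). The summed cell-cycle level differed between these groups too, as given above.

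**Figure D4:**
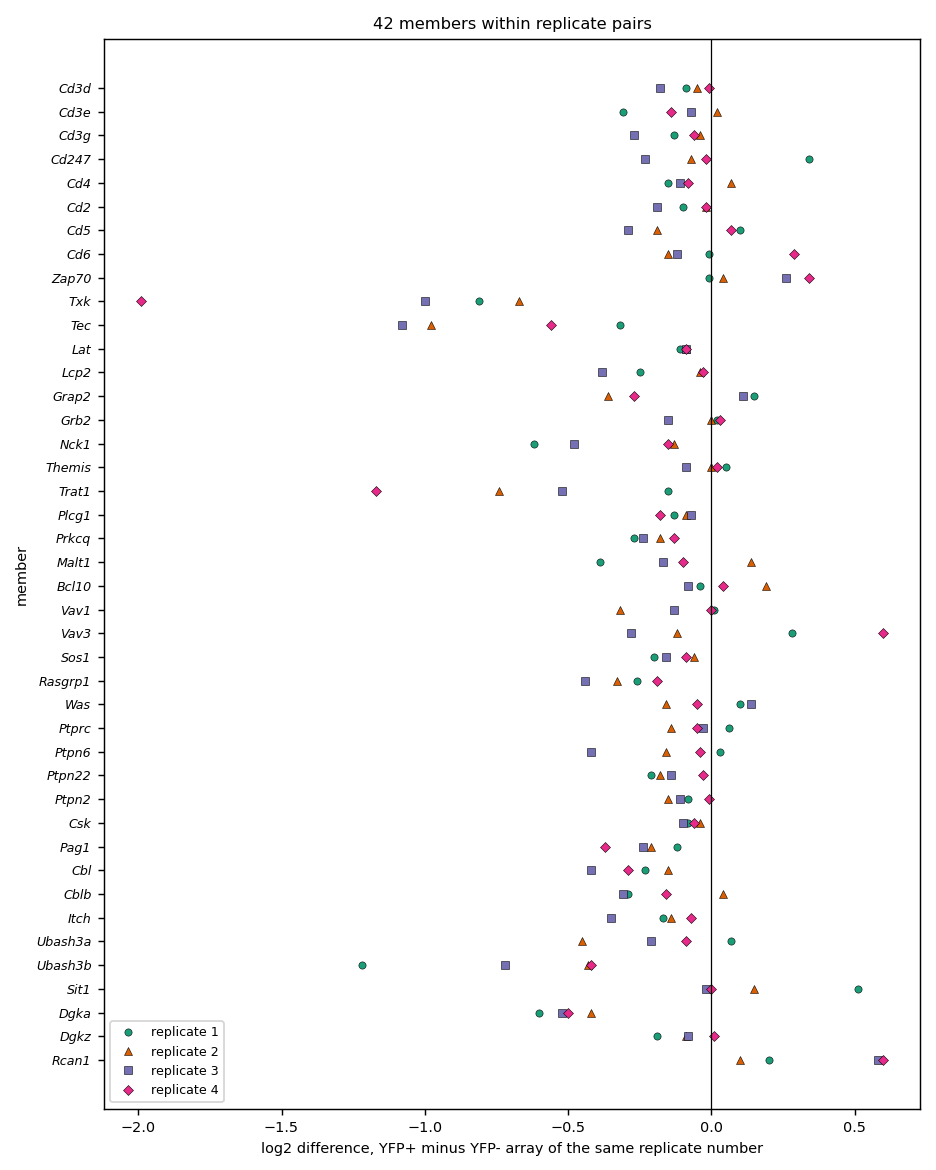
Log2 difference (x axis) between the YFP-positive and the YFP-negative array of the same replicate number for each of the 42 members (y axis); each marker shape is 1 of the 4 pairs. In 21 members all 4 markers lie left of 0, with Txk reaching -1.99, and in Rcan1 all 4 lie right of it.

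Neither genotype nor day gave a call among the members. Genotype was partly mixed with day and normalization set, so these cannot be fully told apart. All Bcl6yfp/+ arrays are from day 7, and Bcl6+/+ replicates 1 and 2 are from day 10. Replicate 1 of each genotype stood in a different set. Bcl6yfp/+ against Bcl6+/+ cells had 0 of 42 called (0.0% of all genes), 0 at an unadjusted limma p under 0.05, and 0 with the replicate block. The differences ran from -0.50 in Zap70 to 0.34 in Rcan1, with a median of -0.17 beside -0.26 for all genes. Bcl6yfp/+ replicate 1, which shares a set with a naive array, was the lowest of its group in many members, with Zap70 at 12.20 against 13.41 and 13.41 and Ptpn6 at 11.83 against 13.22 and 13.14. Day 10 against day 7, estimated inside the YFP-positive, YFP-negative and Bcl6+/+ groups, gave 0 calls (0.232% of all genes), with unadjusted limma p under 0.05 for Txk (-1.32, SE 0.38, adjusted p = 0.17) and Grap2 (-0.65, SE 0.29, adjusted p = 0.44).

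Further genes of the pathway, 72 of 86 listed, were read in the same way. In YFP-positive against CXCR5lo PD-1lo cells 2 were higher and 6 lower, where 5.18% and 5.39% of all genes were. Rnf128 (GRAIL), an E3 ligase of unresponsive T cells, rose by 4.58, and Ptpn11 (SHP-2), which binds PD-1, by 1.53. Rasgrp2, a calcium-activated exchange factor for RAP1, fell by 6.42. The docking protein Gab3 fell by 1.68. The calcineurin subunit Ppp3ca fell by 4.49, to 4.12 in YFP-positive cells, near the filter limit of log2 4. The other listed calcineurin subunits were not called there: Ppp3cc gave 0.45, Ppp3cb -0.10 and Ppp3r1 -0.07. Of the further genes, 2 were higher and 3 lower in YFP-negative cells (3.13% and 3.39% of all genes). From naive to CXCR5lo PD-1lo cells 13 rose and 0 fell (10.4% and 1.58%), led by the potassium channel Kcna3 (3.82), the NF-kappaB subunit Rel (3.0) and Nfatc1 (2.62).

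Related members were also set side by side. In YFP-positive against CXCR5lo PD-1lo cells, GRB2 (Grb2) gave -0.10 beside the -2.15 of its relative Grap2, Cbl and Cblb gave -0.19 and -0.14, and Vav1 and Vav3 gave -0.22 and -0.46.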

How the data were processed

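RNA from 19 sorted samples was hybridised to Affymetrix mouse arrays. The deposited values are log2 intensities, processed by the authors with GCRMA, per the submitters' processing notes; its version, and which arrays were processed together, are not stated in the labels. Of 45101 probe sets, 34945 have 1 gene symbol, 932 several, 9160 none and 64 are controls. Limma 3.58.1 in R 4.3.3 fitted the 6 group means to all 19 arrays, with empirical Bayes moderation and two-sided tests; sums used Python 3.11.15 and pandas 2.3.3. The fitting step was tested on simulated data with independent arrays. That test does not cover arrays that deviate together, as these do. The arrays' number limits the precision. Same-number arrays correlated at 0.27 to 0.87 in their deviations from group means, so replicate number was also fitted as a block; the naive arrays carry no such pairing. Other alternatives were normalization set as a block, quantile normalization, day, the groups compared alone, other filters and probe sets, and each array left out. Named genes are all members called, with values on all arrays for the 2 largest per role; exceptions are Zap70, Rasgrp1 and Dgka, chosen after their values were seen. The members, lists and tests were chosen with earlier results of these data known, and the count over pairs was added after the data were seen.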

Additional observations from a re-analysis of the deposited data

Results flagged for a closer look

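In groups of 4 arrays, 8 of 84 member and group combinations had 1 array far from the others by Dixon's criterion, which chance gives in about 1 of 20. Txk was low on replicate 4 in both YFP groups: 4.96 in YFP-positive cells, where the others were at 7.54 to 7.71, and 6.95 in YFP-negative cells, where they were at 8.38 to 8.54. Both are day 10 arrays, but YFP-negative replicate 1, also from day 10, was at 8.48. Was was also low on YFP-positive replicate 4, at 9.73 against 10.42 to 10.47. YFP-positive replicate 2 was high for Cd3e (14.39 against 13.89 to 13.92) and Dgkz (14.09 against 13.85 to 13.89). In YFP-negative cells Plcg1 was low on replicate 3 (14.24 against 14.54 to 14.59), Prkcq high on replicate 1 (14.22 against 13.97 to 14.01) and Ptprc high on replicate 2 (14.65 against 14.12 to 14.19).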

How the results depend on the processing

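Of the checked alternatives, 816 kept a result, 142 lost its call, 64 moved its size and 4 turned its direction. In refits a kept result had the same direction and call. Single normalization sets and other probe sets carried no test. There a kept result lay within 1 within-group standard deviation of the main difference, and a moved one lay farther off in the same direction. In YFP-positive against CXCR5lo PD-1lo cells, 7 members were called: 17 (3 higher, 14 lower) with the normalization set as a block, 13 (2 and 11) after quantile normalization, 16 (3 and 13) with the replicate block, and 5 to 9 with 1 array left out. YFP-negative against CXCR5lo PD-1lo cells gave 3, against 18 (7 and 11), 7 (1 and 6) and 13 (3 and 10) under the same settings, and 3 to 4 with 1 array left out. CXCR5lo PD-1lo against naive cells gave 9, against 16 (9 and 7) with the set block, 1 with only the groups compared, and 2 to 8 with 1 array left out. YFP-positive against naive cells gave 14, against 24 (11 and 13) with the set block and 21 after quantile normalization, and 8 to 17 with 1 array left out. YFP-negative against naive cells gave 13, against 30 (18 and 12) with the set block, and 6 to 12. The genotype groups against naive cells gave 15, against 5 (3 and 2) with only the groups compared, and 9 to 27. YFP-positive against YFP-negative cells gave 0, against 6, all lower, with the set block and 1 with the replicate block (pairing by number), and 0 without any 1 array. The replicate block left Bcl6yfp/+ against Bcl6+/+ at 0. The members lower in every YFP pair were 21, against 23 with each pair centred on the all-gene median and 21 to 25 with 1 pair left out. In the genotype groups against naive cells, Plcg1 turned to -0.31 on the mean of its probe sets. It turned to -1.68 on another probe set, which was near the floor in the genotype groups (2.44). Ptprc turned to -0.63 and Ubash3a to -0.28 on another probe set. The cause was not tested. Probe sets near the floor of about log2 2 carry no order.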
